A study of Rattus norvegicus with 4 samples.

Results

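The genes described here encode the nuclear-encoded subunits of the mitochondrial respiratory chain and of ATP synthase, measured in cultured rat ovaries (Rattus norvegicus). The rule that picks them uses gene symbols and no measured value, although it was written with earlier results of these data known: every probe set annotated with a single symbol beginning with Nduf, Uqcr, Atp5 or Cox4 to Cox8, together with Sdha, Sdhb, Sdhc, Sdhd and Cyc1. This gave 87 genes, of 14218 on the array with a probe set of 1 symbol, and 97 probe sets of 31099. Each gene was represented by its brightest probe set over the 4 arrays. The groups were 2 pools of ovaries cultured with 50 ng/mL AMH (anti-Müllerian hormone, a hormone of the TGF-beta family that the granulosa cells of growing follicles secrete) and 2 pools of ovaries cultured with no hormone (control). All ovaries came from postnatal day 4 pups and stayed in culture for 10 days as whole organs in medium with insulin, transferrin and ascorbic acid, with about 10 ovaries of 1 treatment in each pool. The labels name no strain, and a whole ovary mixes oocytes, granulosa cells and stroma. The question, from the title of the series, is which transcripts change when AMH restrains the step from primordial to primary follicle.

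Mitochondria make ATP by passing electrons from NADH (through complex I) or succinate (through complex II) to ubiquinone, then through complex III, cytochrome c and complex IV to oxygen, while complexes I, III and IV pump protons whose return drives complex V, the ATP synthase. Most subunits are encoded in the nucleus and imported, while a small catalytic set is encoded in mitochondrial DNA and is not covered here. In the ovary the oocyte carries a very large stock of mitochondria, and mitochondria of steroid-producing cells also begin steroid synthesis.

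With AMH, genes of the respiratory chain and ATP synthase were called lower more often than genes at large, and were called higher about as often as genes at large. Values are probe set intensities in the array's arbitrary units, and changes are AMH minus control in log2(intensity + 16), ± the model's standard error (limma, n = 2 arrays in each group). A gene was called when its p-value, adjusted over all 18625 tested probe sets, was under 0.05. Of the 87 genes 86 were bright enough to be tested, and Cox8b was not (2.3 and 1 with AMH, 1.4 and 1.3 in control). Of the 86, 33 (38.4%) fell, against 11.9% of the 10622 genes tested on the array, and 10 (11.6%) rose, against 11.1% of all genes tested. The remaining 43 were not called. Bright genes as a whole were called more often: of the 966 tested genes at or above the members' median intensity, 18.9% were lower and 22.0% higher. None of the 10 rises kept its call in every alternative setting. With arrays scaled to the hybridization controls 0 members were called higher, against 0.9% of all genes tested. The median change was -0.33, against 0.07 over all genes tested, and the changes ran from -2.63 for Atp5mg to 0.87 for Uqcrh. Of the 33 lower genes 23 fell at least 2-fold, and 0 of the 10 higher genes rose as much. Over all genes tested the falls were also the larger, with 643 of 1269 lower and 214 of 1175 higher genes at least 2-fold changed. Both AMH arrays lay below both control arrays for 49 of the 86 genes (28.6% of all genes tested) and above them for 20 (36.0% of all genes tested), and the groups overlapped for 17.

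**Figure D1:**
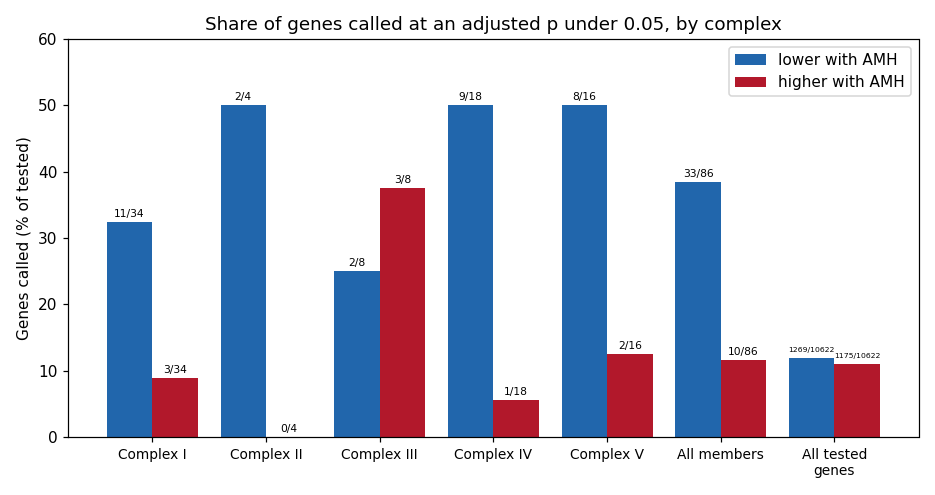
Share of tested genes called lower (blue) or higher (red) with AMH at an adjusted p under 0.05, for complexes I to V, for all 86 tested members and for all 10622 tested genes (y axis, percent of tested genes; the labels give called over tested genes, n = 2 arrays per group). Lower genes made up 50% of complexes II, IV and V, and complex III held 3 higher and 2 lower genes. With arrays scaled to the hybridization controls no member was called higher, against 0.9% of all tested genes.

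Several properties of the arrays moved with the groups, and their part in these results was not tested. The GAPDH control probe sets for the 3′ and 5′ ends, whose ratio is a measure of how intact the labelled RNA is, gave 3′/5′ ratios of 6.56 and 6.37 on the AMH arrays and 1.17 and 1.27 on the control arrays. Those of beta-actin gave 10.73 and 14.44 on the AMH arrays and 3.17 and 4.60 on the control arrays. Chip identifiers carry another run string in each group, so run and treatment cannot be told apart. The size of every change depends on the common scale: scaling to the hybridization controls, labelled RNA added at hybridization, shifted the median of all tested genes by -0.42 relative to the deposited values (-0.35 against 0.07). On that scale 44 of the 86 members were lower and 0 higher. The same scaling gave 2593 lower and 94 higher among the 10622 genes tested, compared with 1269 and 1175 as deposited. Relative to all genes the members' median was -0.45, compared with -0.41 as deposited. Ovarian cell markers moved too. Markers of oocytes, which carry their own mitochondria, were lower for 5 of 8 measured genes, Gdf9, Bmp15, Sohlh1, Ooep and Kit. Summed over the 8, intensity was 7375 and 7744 with AMH and 10450 and 9788 in control, and 0 were higher. Bmp15 and Kit were under the filter level (27.8) on both AMH arrays and passed only through the control arrays. The call of Ooep was lost in 8 of 15 alternative settings. Granulosa markers were higher for 2 of 9 (6682 and 4806 with AMH, 3639 and 3128 in control, 0 lower). These were Inhbb (1473.9 and 707.5 with AMH) and Amhr2, a call lost in 8 of 15 settings. Inha, not called, read 1930.6 and 566.2 with AMH. The other oocyte markers were not called: Zp2 (2466.1 and 3388.9 with AMH, 2798.6 and 3002.6 in control), Zp3 (2721.8 and 1977.8 with AMH, 2531.1 and 2133.5 in control) and Zp1 (134.7 and 68.8 with AMH, 99.7 and 176.6 in control) overlapped between the groups. In whole-organ RNA, fewer cells of a type and less RNA per cell cannot be told apart. Over all genes tested 11.9% were lower and 11.1% higher. Among the other lists, 1 of 8 tested theca and stroma markers was higher, Pdgfra, and 1 lower, Col1a1 (336.4 and 639.3 with AMH, 4330.2 and 3363.5 in control). Col1a1 weighed on the sum of that list (8445 and 8245 with AMH, 10371 and 9592 in control), while the median change of the 8 was 0.46. Of 5 macrophage markers 1 was higher (637 and 1068 with AMH, 759 and 660 in control). Endothelial markers (682 and 807 with AMH, 761 and 704 in control) were called for 0 of 3, and surface epithelium markers (1650 and 3241 with AMH, 3790 and 3108 in control) for 0 of 5. Smooth muscle markers were lower for 2 of 5 genes (225 and 370 with AMH, 489 and 445 in control), and of 2 red blood cell markers Hbb fell (89.4 and 55.3 with AMH, 1362 and 1166.8 in control). Of 7 markers of brown fat and striated muscle, tissues that use other isoforms of the chain, 5 (Ucp1, Ckm, Myh6, Myh7 and Tnnt2) were below the filter on dim probe sets, and 0 of the other 2 were called.

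Complex I, the NADH dehydrogenase and entry point of electrons, had 11 of 34 genes lower (32.4%) and 3 higher (8.8%). Of all genes tested 11.9% were lower and 11.1% higher. The median of the complex was -0.24. The largest falls were in accessory subunits, which surround and stabilise the catalytic core. Ndufb10, of the membrane arm, read 100.7 and 148.8 with AMH against 599.5 and 531.7 in control (-2.07 ± 0.21, adjusted p = 0.000742). Ndufa13, also known as GRIM-19, a regulator of cell death, read 194.6 and 182.3 with AMH against 760.9 and 719.7 in control (-1.89 ± 0.16, adjusted p = 0.00042). In both of these the AMH arrays lay well below the control arrays. Ndufa5, of the ubiquinone-reducing module, was at 50.8 and 59.4 with AMH and at 268.1 and 225.3 in control (-1.88 ± 0.20). Further accessory subunits that fell were Ndufa11 (-1.72 ± 0.20), Ndufb11 (-1.46 ± 0.14), Ndufb1 (-1.19 ± 0.20), Ndufb4 (-1.07 ± 0.14) and Ndufa6 (-0.66 ± 0.18). Ndufb8, also of the membrane arm, was called lower too (4 and 11.2 with AMH, 81.6 and 116.3 in control), but it passed the filter only through the control arrays. Both of its AMH values were dimmer than the filter level (27.8), and the fitted change ran between -3.66 and -1.18 with 1 or 64 added in place of 16, so its size is not ranked here.

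The core subunits of complex I, which as a set, though not each of them, bind NADH and carry the iron-sulphur clusters, gave 2 falls and 0 rises among 6 measured. All genes tested were lower for 11.9% and higher for 11.1%. Ndufs3 read 182.1 and 223 with AMH against 482.6 and 445.8 in control (-1.14 ± 0.17, adjusted p = 0.00408). Ndufs7, which holds the last iron-sulphur cluster before ubiquinone, read 274.6 and 332 with AMH against 535.2 and 447.4 in control (-0.67 ± 0.18, adjusted p = 0.0307). Ndufv1, which binds NADH (-0.33 ± 0.18), Ndufv2 (-0.02 ± 0.17), Ndufs8 (0.33 ± 0.20) and Ndufs1, the largest core subunit (0.51 ± 0.16, adjusted p = 0.0529), were not called. Against these, 3 accessory subunits rose. Ndufb5 read 1461.4 and 2025.8 with AMH against 999.2 and 945 in control (0.81 ± 0.18, adjusted p = 0.0157). Ndufb9 read 2726.4 and 2638.9 with AMH against 1760.7 and 1537.2 in control (0.70 ± 0.14, adjusted p = 0.0113). Ndufs6, a zinc-binding subunit added late in assembly, read 1423 and 1580.3 with AMH against 985.6 and 987 in control (0.60 ± 0.14, adjusted p = 0.0208). Ndufb5 and Ndufb9 lie in the membrane arm, as do Ndufb8 and Ndufb10. The other accessory subunits were not called and lay between -0.89 for Ndufa3 (210.9 and 383.6 with AMH, 642.3 and 455.1 in control) and 0.55 for Ndufc1. They were Ndufa1 (3205.5 and 3157.5 with AMH, 2542.4 and 2257.1 in control), Ndufa2, Ndufa7, Ndufa8, Ndufa9, Ndufa12, Ndufab1, Ndufb2, Ndufb3, Ndufb6, Ndufb7, Ndufc2, Ndufs4 and Ndufv3. Without control replicate 1 the adjusted p was 0.279 for Ndufa6, 0.265 for Ndufs7, 0.0609 for Ndufb5, 0.0586 for Ndufb9 and 0.169 for Ndufs6, and without control replicate 2 it was 0.0579, 0.0784, 0.0751, 0.139 and 0.15 in the same order.

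**Figure D2:**
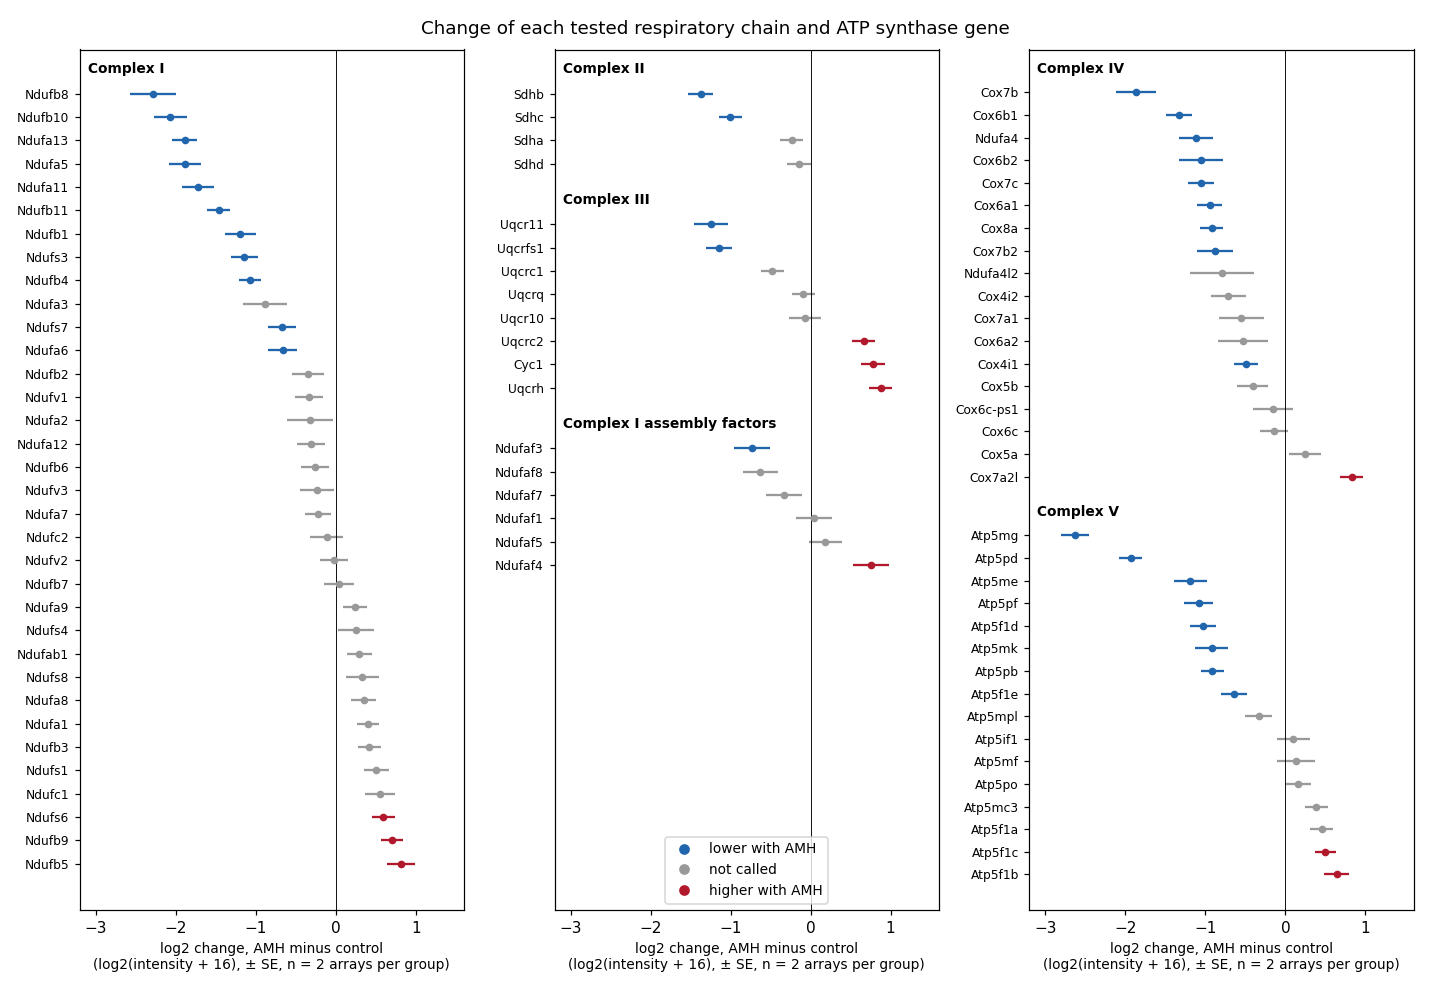
Change of each of the 86 tested genes (x axis, AMH minus control in log2(intensity + 16), points with ± SE bars, n = 2 arrays per group), ordered within complexes I to V and the complex I assembly factors, in blue where lower, red where higher and grey where not called. Changes ran from -2.63 (Atp5mg) to 0.87 (Uqcrh), and complexes I, III, IV and V each held genes of both colours. With hybridization control scaling the 10 red genes stayed above 0 (0.01 to 0.39) and none was called, where 0.9% of all genes tested were called higher.

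Complex II, succinate dehydrogenase, which also works in the tricarboxylic acid cycle, has 4 subunits, all nuclear. Sdhb, the iron-sulphur subunit, read 326.2 and 395.1 with AMH against 943.3 and 971.2 in control (-1.38 ± 0.16, 2.59-fold lower, adjusted p = 0.00135). Sdhc, a membrane anchor, read 374.2 and 374.5 with AMH against 778.8 and 755.3 in control (2.01-fold lower, adjusted p = 0.00346). Sdha, the flavoprotein that oxidises succinate, read 949.8 and 1050.2 with AMH against 1140.3 and 1216.2 in control (-0.23 ± 0.14) and was not called. Its arrays did not overlap between the groups, while those of the other anchor, Sdhd, did (848.2 and 940.4 with AMH, 1058.3 and 922 in control, -0.14 ± 0.15). A dimmer probe set of Sdhd was called lower (-1.16 ± 0.16, adjusted p = 0.00275).

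Complex III, which passes electrons from ubiquinol to cytochrome c, had 2 genes lower, 3 higher and 3 not called on the deposited scale. With hybridization control scaling 3 were lower and 0 higher, where 2593 and 94 of the 10622 genes tested were. Uqcrh, the hinge protein near cytochrome c1, read 3079.7 and 3688.7 with AMH against 1884.9 and 1779.4 in control, the largest rise among the members (0.87 ± 0.15, 1.83-fold, adjusted p = 0.0059). Cyc1, cytochrome c1 itself, read 1345.2 and 1181.6 with AMH against 698.5 and 762.3 in control (0.78 ± 0.15, adjusted p = 0.00963). The other nuclear redox subunit, the Rieske iron-sulphur protein Uqcrfs1, went the other way, at 520.1 and 654.3 with AMH and 1367.9 and 1261.4 in control (-1.15 ± 0.16, adjusted p = 0.00304). The small subunit gene Uqcr11 read 263.1 and 404.6 with AMH against 821.6 and 773 in control (-1.25 ± 0.21, adjusted p = 0.00579). Of the core proteins Uqcrc2 rose at its brightest probe set (1839.9 and 1870.7 with AMH, 1088.4 and 1247.4 in control, 0.66 ± 0.14, adjusted p = 0.0146) and fell at its other one (-1.31 ± 0.24, adjusted p = 0.00874), while Uqcrc1 was at -0.48 ± 0.15 (adjusted p = 0.0531). The small subunits Uqcrq (-0.09 ± 0.14) and Uqcr10 (-0.08 ± 0.20) were not called. The median of the complex was -0.08 as deposited, -0.56 with hybridization control scaling and 0.08 with a trend over gene span removed. Without control replicate 1 the adjusted p was 0.102 for Cyc1 and 0.187 for Uqcrc2, and without control replicate 2 it was 0.0613 for Uqcrc2.

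Complex IV, cytochrome c oxidase, which reduces oxygen, had 9 of 18 tested genes lower (50.0%) and 1 higher (5.6%), with a median of -0.75. Of all genes tested 11.9% were lower and 11.1% higher. Among the 10 widely expressed subunits of complex IV 7 fell and 0 rose. Cox7b, a small membrane subunit, read 488.6 and 869 with AMH against 2686.3 and 2202 in control (-1.87 ± 0.25, adjusted p = 0.00234). Cox6b1, on the side of the intermembrane space, read 536.7 and 655.7 with AMH against 1416.6 and 1626.7 in control (-1.33 ± 0.16, adjusted p = 0.00166). Ndufa4, first described as a complex I subunit and now counted with complex IV, read 475.4 and 748.9 with AMH against 1393.2 and 1242.1 in control (-1.12 ± 0.21, adjusted p = 0.00947). The same direction held for Cox7c (-1.05 ± 0.16), Cox6a1 (-0.95 ± 0.16), Cox8a (-0.92 ± 0.14) and Cox4i1, the regulatory subunit (-0.49 ± 0.14, adjusted p = 0.043). Cox5b (-0.41 ± 0.19), Cox6c (2306.8 and 3131.2 with AMH, 3155.2 and 2797.3 in control, -0.14 ± 0.17) and Cox5a (0.25 ± 0.20) were not called. Cox7a2l, which joins complexes III and IV into supercomplexes, was the single rise, at 3192 and 2926.9 with AMH and 1607.9 and 1831.2 in control (0.83 ± 0.14, adjusted p = 0.00641). Without control replicate 1 its adjusted p was 0.0817. Cox4i1 had adjusted p-values of 0.268 without control replicate 1 and 0.234 without control replicate 2, and of 0.0685 with median centring and 0.0737 with quantile normalization.

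Tissue isoforms and paralogs of complex IV were not raised either. All 6 that were tested lay below control on both AMH arrays, as did 28.6% of all genes tested, and 2 of them were called. Cox6a2, Cox7a1 and Ndufa4l2 did so near the filter level. Cox6a2 was separated only by 35.6 against 35.8, and Cox7a1 passed the filter only through the control arrays. Cox6b2, a testis isoform, read 50.6 and 76.6 with AMH against 189 and 114.5 in control (-1.06 ± 0.28, adjusted p = 0.0299), beside the fall of Cox6b1. Cox7b2, another testis form, read 57.2 and 49.1 with AMH against 129.1 and 95.4 in control (-0.88 ± 0.23, adjusted p = 0.0288), beside that of Cox7b. Cox4i2, an isoform of lung and of low oxygen, was at 39.8 and 42 with AMH and 79.3 and 75.5 in control (-0.71 ± 0.22, adjusted p = 0.0509). The muscle isoforms Cox6a2 (25.9 and 35.6 with AMH, 71 and 35.8 in control) and Cox7a1 (24.6 and 16.7 with AMH, 31.5 and 44 in control) and the hypoxia-induced paralog Ndufa4l2 (5.5 and 35.8 with AMH, 39.4 and 44.4 in control) were near the filter level and not called. Cox6c-ps1 is annotated as a pseudogene of Cox6c, and whether its dim probe set also reads that gene was not tested (36.1 and 33.2 with AMH, 45.1 and 36.3 in control, not called). Cox6b2 lost its call in 4 of 15 alternative settings. These were no filter (adjusted p = 0.0636), the gene span trend removed (0.0533 adjusted), without control replicate 1 (change -0.73) and without AMH replicate 1 (-0.82). Cox7b2 lost its call in 3 of 15. These were no filter (adjusted p = 0.0645), without control replicate 1 (change -0.69) and without control replicate 2 (-1.07).

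Complex V, the ATP synthase, had 8 of 16 genes lower and 2 higher (median -0.49). With hybridization control scaling 9 were lower and 0 higher, where 2593 and 94 of the 10622 genes tested were. Of 5 subunits of the catalytic head and central stalk 2 were higher and 2 lower, and a difference between parts of the enzyme was not tested. Atp5f1b, the beta subunit with the catalytic sites, read 3532.8 and 2814.7 with AMH against 1999.7 and 2038.4 in control (0.64 ± 0.15, adjusted p = 0.022). Atp5f1c, the gamma subunit that turns inside the head, read 2887.5 and 2977.4 with AMH against 2091.5 and 2061.6 in control (0.49 ± 0.13, adjusted p = 0.0311). Atp5f1a, the alpha subunit, was not called, though its AMH arrays (2020.3 and 1756.1) lay above the control arrays (1425.4 and 1322; 0.45 ± 0.14, adjusted p = 0.0576). The delta and epsilon subunits at the foot of the central stalk fell, with Atp5f1d at 237.4 and 239 with AMH and 537.4 and 473.1 in control (-1.03 ± 0.16, adjusted p = 0.00454) and Atp5f1e at 1396.2 and 1722.6 with AMH and 2581.9 and 2288.9 in control (-0.64 ± 0.16, adjusted p = 0.0236).

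Of the peripheral stalk, which keeps the head from turning, 3 of 4 subunits fell and 0 rose (11.9% and 11.1% of all genes tested). Atp5pd read 427.4 and 468.2 with AMH against 1749 and 1755.5 in control (-1.93 ± 0.14, 3.82-fold lower, adjusted p = 0.000284). Atp5pf read 529.4 and 725.5 with AMH against 1435 and 1239.3 in control (-1.09 ± 0.18) and Atp5pb 904 and 1035.2 with AMH against 1884.2 and 1801.1 in control (-0.92 ± 0.14). The fourth, Atp5po, also called OSCP, the link between stalk and head, was at 0.16 ± 0.15 with overlapping groups (1504.2 and 1711.1 with AMH, 1568.6 and 1309.7 in control). Of the small membrane subunits, which hold synthase dimers together, 3 of 5 fell. Atp5mg, subunit g, had the largest fall of all members, at 226.4 and 296.6 with AMH and 1840.2 and 1548.3 in control (-2.63 ± 0.18, 6.19-fold lower, adjusted p = 0.000268). Atp5me, subunit e, which pairs with subunit g, read 177.4 and 262.2 with AMH against 554 and 475 in control (-1.19 ± 0.21, adjusted p = 0.00693), and Atp5mk 781.8 and 1151 with AMH against 2063.9 and 1595.4 in control (-0.92 ± 0.21, adjusted p = 0.0184). Atp5mpl (-0.34 ± 0.17), Atp5mf (0.13 ± 0.24), the proton-carrying c subunit gene Atp5mc3 (0.38 ± 0.14) and the ATP synthase inhibitor Atp5if1 (0.10 ± 0.20) were not called. Without control replicate 1 the adjusted p was 0.151 for Atp5f1b, 0.238 for Atp5f1c, 0.208 for Atp5f1e and 0.117 for Atp5mk. Without control replicate 2 it was 0.118 for Atp5f1b, 0.238 for Atp5f1c and 0.0797 for Atp5f1e. A further 7 probe sets carry several symbols of which at least 1 has such a name, so they were not counted as members (3 lower, 0 higher).

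**Figure D3:**
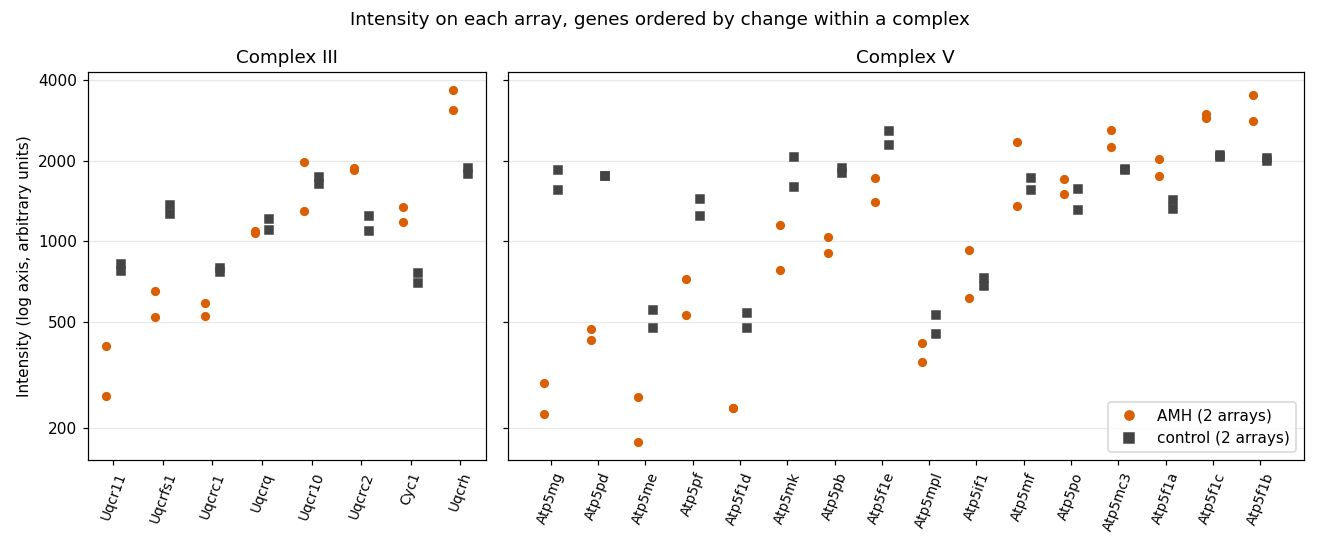
Intensity of each gene of complex III (left) and complex V (right) on the 2 AMH arrays (orange circles) and the 2 control arrays (dark grey squares), on a log axis in arbitrary units, with genes ordered by their change. Levels of different genes are not comparable, since each probe set has its own sensitivity. The AMH arrays lie below control at the left (Atp5mg 226.4 and 296.6, control 1840.2 and 1548.3) and above it at the right of each panel (Uqcrh 3079.7 and 3688.7, control 1884.9 and 1779.4).

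Of the 6 complex I assembly factors matched by name, which help to build the complex and are not part of it, 1 fell and 1 rose. That is 16.7% each, against 11.9% lower and 11.1% higher of all genes tested. Ndufaf3 read 110.6 and 147.4 with AMH against 189.9 and 263.2 in control (-0.74 ± 0.22, adjusted p = 0.0487). Ndufaf4, which acts with Ndufaf3 early in assembly, read 294.8 and 462.7 with AMH against 197.6 and 227.5 in control (0.76 ± 0.23, adjusted p = 0.0459). Ndufaf8 (-0.63 ± 0.22), Ndufaf7 (-0.33 ± 0.22), Ndufaf1 (0.04 ± 0.23) and Ndufaf5 (0.18 ± 0.21) were not called. Neither call was firm: Ndufaf3 had adjusted p-values of 0.0956 without AMH replicate 1, 0.0686 without control replicate 1, 0.329 without control replicate 2 and 0.0647 with median centring. Ndufaf4 had 0.103 without AMH replicate 2, where its change was 0.45, 0.208 without control replicate 1 and 0.0855 without control replicate 2 (all adjusted).

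Of the 9 genes with more than 1 probe set, 6 had a second one bright enough to test, and for Sdhd and Uqcrc2 the calls differed. The dimmer probe set of Sdhd fell (209.5 and 200.2 with AMH, 495.5 and 459 in control, -1.16 ± 0.16, adjusted p = 0.00275), while the brighter one was at -0.14. The dimmer probe set of Uqcrc2 fell (88.5 and 106.7 with AMH, 334.8 and 207.5 in control, -1.31 ± 0.24, adjusted p = 0.00874), while the brighter one rose by 0.66. The mean over both Uqcrc2 probe sets was -0.32 and not called (adjusted p = 0.195). No source names the position of a probe set within its transcript, so whether these pairs read different ends was not tested. On the same arrays the GAPDH control probe sets changed by -2.68 at the 5′ end and -0.32 at the 3′ end, and those of beta-actin by -3.82 at the 5′ end and -2.36 at the 3′ end. For Atp5if1, Ndufa7, Ndufv3 and Ndufaf7 neither probe set was called, and those of Ndufaf7 differed in sign (-0.33 and 0.18).

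**Figure D4:**
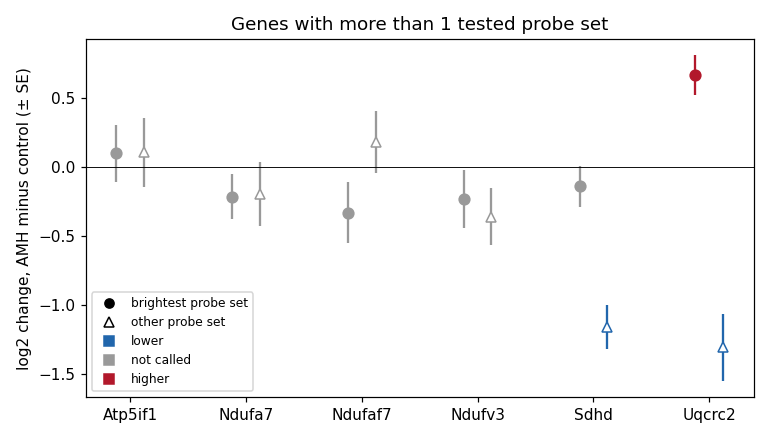
Change of the 6 genes with more than 1 tested probe set (y axis, AMH minus control in log2(intensity + 16), ± SE, n = 2 arrays per group), for the brightest probe set (filled circles) and the other one (open triangles), in blue where lower, red where higher and grey where not called. The probe sets of Uqcrc2 were called in opposite directions (0.66 and -1.31), and 1 of 2 was called lower for Sdhd (-0.14 and -1.16).

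The arrays of a group also differed in common across the members. AMH replicate 2 was above AMH replicate 1 for 71 of the 86 genes, while this held for 48.9% of all genes tested, and control replicate 1 was above control replicate 2 for 60 of the 86, against 50.8% of all genes tested. Without AMH replicate 2 the members' median was -0.44, against 0.08 over all genes tested. Without AMH replicate 1 these medians were -0.21 and 0.06. Of the 33 falls 25 held in each of the 15 alternative settings in which the gene was tested, and none of the 10 rises did. The rise of Uqcrh was lost only with hybridization control scaling (0.39, adjusted p = 0.269).

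**Figure D5:**
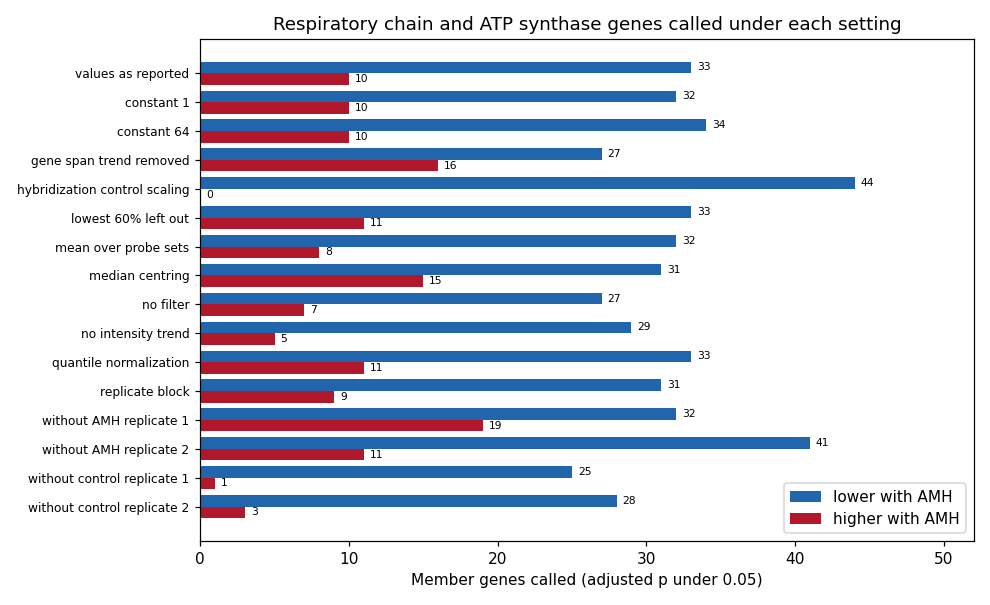
Number of member genes called lower (blue) and higher (red) with AMH at an adjusted p under 0.05 (x axis), for the values as reported and for each of 15 alternative settings (y axis). The number of calls over all genes tested, not drawn here, also changed between settings. Lower calls ranged between 25 and 44 and higher calls between 0 (hybridization control scaling) and 19 (without AMH replicate 1).

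Gene span and promoter letters were set beside the changes, with motifs of known regulators of mitochondrial genes. The members' median gene span in RefSeq was 7129 bases, against 24058 for all tested genes, and it was 6702 for the lower, 8381 for the higher and 7937 for the uncalled members. Across the 86 members the change had a Spearman correlation of 0.25 with gene span, and of 0.13 across 10584 tested genes, as a description only, since the values come from the same 4 arrays. Promoters, from 250 bases before to 50 after the start site, were listed in RefSeq (GRCr8) for 78 of the 87 genes. The ETS core bound by GABP (CCGGAAG, either strand) was in 28.2% of member promoters, 8.75% of all 33469 promoters in the table and 10.7% of the 21842 of protein-coding genes. The YY1 motif (AAGATGGC) was in 21.8%, 3.17% and 3.68% of the same sets, and an NRF1 core (GCATGCGC) in 11.5%, 2.47% and 3.11%. The SP1 box (GGGCGG) was in 43.6%, 33.1% and 41.8%, and CCAAT was in 34.6% of member promoters and 37.5% of all promoters. All motifs were searched on both strands. ETS was in 9 of 30 lower, 2 of 8 higher and 11 of 39 uncalled members. YY1 was in 7 of 30 lower, 1 of 8 higher and 9 of 39 uncalled members. NRF1 was in 5 of 30 lower, 1 of 8 higher and 3 of 39 uncalled members.

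To show promoters of subunits of the same complex that moved in opposite directions, the 250 bases before the start site are given for the most lowered and the most raised gene of complexes III and V that RefSeq lists a promoter for, 5′ to 3′ on the gene's strand. The genes are Uqcrfs1 (lower; chr17:34186352-34186601, plus strand), Uqcrh (higher; chr5:134790883-134791132, minus strand), Atp5mg (lower; chr8:54130408-54130657, minus strand) and Atp5f1b (higher; chr7:1099808-1100057, plus strand), all in GRCr8. Capitals mark NRF1, ETS and YY1 motifs on either strand.
Uqcrfs1: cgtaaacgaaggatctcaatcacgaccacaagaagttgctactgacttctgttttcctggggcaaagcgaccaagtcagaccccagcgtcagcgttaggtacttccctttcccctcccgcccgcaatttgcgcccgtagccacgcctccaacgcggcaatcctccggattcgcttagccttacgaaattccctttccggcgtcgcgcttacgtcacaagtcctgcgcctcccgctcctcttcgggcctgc
Uqcrh: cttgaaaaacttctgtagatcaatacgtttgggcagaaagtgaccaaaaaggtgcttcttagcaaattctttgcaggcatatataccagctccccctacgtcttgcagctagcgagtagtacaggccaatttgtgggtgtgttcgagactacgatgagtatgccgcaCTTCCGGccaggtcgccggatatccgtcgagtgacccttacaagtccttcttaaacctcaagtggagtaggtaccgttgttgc
Atp5mg: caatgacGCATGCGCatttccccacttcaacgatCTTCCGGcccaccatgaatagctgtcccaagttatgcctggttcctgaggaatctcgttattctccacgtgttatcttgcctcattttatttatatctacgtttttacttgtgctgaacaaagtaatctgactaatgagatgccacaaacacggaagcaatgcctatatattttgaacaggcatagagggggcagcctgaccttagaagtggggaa
Atp5f1b: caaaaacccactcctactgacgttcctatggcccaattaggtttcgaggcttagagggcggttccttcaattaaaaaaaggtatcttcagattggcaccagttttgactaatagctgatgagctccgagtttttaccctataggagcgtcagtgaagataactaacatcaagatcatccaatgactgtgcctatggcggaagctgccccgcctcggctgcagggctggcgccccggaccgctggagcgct
The Uqcrh window held the ETS core at position -83 from the start site and that of Atp5mg held the NRF1 core at -243 and the ETS core at -216, while those of Uqcrfs1 and Atp5f1b held none of these letters.

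Lists of genes around the chain were counted in the same fit, where 11.9% of all genes tested were lower and 11.1% higher. The assembly factors were lower for 3.1% and higher for 9.4%, and the electron carrier list for 21.4% and 0%. The tricarboxylic acid cycle list was lower for 11.8% and higher for 17.6%, and the mitochondrial mass markers for 9.1% and 0%. Of 32 tested assembly factors outside the name pattern 1 was lower and 3 higher (median 0.04): Cox14, for complex IV, fell by 0.74 on the log2 scale, and Uqcc1, for complex III, Atpaf2, for ATP synthase, and Lrpprc, which stabilises mitochondrial mRNA, rose by 0.86, 0.62 and 0.58. Of 14 genes of electron carriers and ubiquinone synthesis 3 were lower and 0 higher, namely Etfb (-1.10), Coq7 (-0.96) and Coq3 (-0.84), and Coq7 and Coq3 act in making ubiquinone. Both main carriers that exchange ADP for ATP fell, Slc25a4 (745.4 and 850.5 with AMH, 1726.4 and 1722.5 in control, -1.10 ± 0.14, adjusted p = 0.00214) and Slc25a5 (1185.5 and 1061.4 with AMH, 1813.8 and 1833.5 in control, -0.69 ± 0.14, adjusted p = 0.0115), while the phosphate carrier Slc25a3 was at 0.14 ± 0.13. In the tricarboxylic acid cycle list 3 of 17 genes rose and 2 fell: Idh2, which makes mitochondrial NADPH, rose by 0.99 ± 0.14 (1819.5 and 1775.6 with AMH, 866.5 and 927 in control) and the cytosolic enzymes Idh1 and Mdh1 rose by 0.61 and 0.46, while Suclg1 and Dlst fell by 1.00 and 0.56 on the log2 scale. Of 11 markers of mitochondrial mass outside the chain, 1 was lower (Tomm40, of the import pore, -1.05) and 0 higher, with a median of -0.32. The voltage-dependent channel genes Vdac1 (-0.33 ± 0.17), Vdac2 (-0.32 ± 0.15) and Vdac3 (-0.40 ± 0.14) and citrate synthase, Cs (-0.40 ± 0.15), were not called.

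Of 14 tested regulators of mitochondrial biogenesis 3 fell and 2 rose (21.4% and 14.3%, against 11.9% and 11.1% of all genes tested). The subunits of the GABP factor, which binds the ETS core, were called in opposite directions: Gabpa rose by 0.76 ± 0.22 (266.3 and 415.5 with AMH, 200.3 and 181.4 in control, adjusted p = 0.0447), a call lost in 7 of 15 alternative settings (adjusted p up to 0.484), and Gabpb1 fell by 1.24 ± 0.20 on the log2 scale (79.8 and 65.1 with AMH, 201.8 and 183.4 in control, adjusted p = 0.00493). Ssbp1, the single-strand binding protein of mitochondrial DNA, fell by 1.42 ± 0.18, Twnk, its helicase, by 0.98 ± 0.25, and Polg2, a subunit of its polymerase, rose by 0.77 ± 0.22. Nrf1 (-0.33 ± 0.18), Tfam (0.14 ± 0.16), Yy1 (0.34 ± 0.14) and Ppargc1a (-0.48 ± 0.29) were not called. In the list of uncoupling and supercomplex genes, Higd2a, which promotes supercomplexes, fell by 2.40 ± 0.17 (117.7 and 103.8 with AMH, 680.4 and 628.8 in control, adjusted p = 0.000268) and Ucp2, an uncoupling protein relative, by 1.40 ± 0.23 (160.9 and 151.3 with AMH, 554.5 and 344 in control), beside the rise of Cox7a2l. Of these 22 called genes outside the members, 6 kept their call in each of 15 settings: Slc25a4, Suclg1, Gabpb1, Ssbp1, Ucp2 and Higd2a. Among the 16 others, the call was lost without control replicate 1 for Coq7 and Tomm40, which were lost in no other setting, and with hybridization control scaling alone for Idh2. The call was lost in 8 settings for Etfb and Idh1, in 7 for Gabpa, Lrpprc, Atpaf2 and Dlst, in 6 for Polg2 and Mdh1, in 4 for Cox14 and Coq3, in 3 for Uqcc1 and Twnk and in 2 for Slc25a5.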

How the data were processed

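The authors deposited 1 table of intensity values, 31099 probe sets by 4 biotin-labelled Affymetrix arrays, on a linear scale, and no label names the program that turned probes into probe set values. A mean trimmed by 2 percent at each end was 125.03 on every array, so the deposited intensities had been scaled to a common level. Titles gave each sample's group and replicate number, and the labels call the pools of a group independent. Genes were named from the platform annotation, and all 97 member probe sets matched RefSeq (GRCr8) by Entrez identifier under the same symbol.

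Values were analysed as log2(intensity + 16). Before the fit 57 control probe sets were dropped, as were the dimmest 40 percent of the others by mean (intensity under about 27.8). AMH was compared with control in limma 3.58.1 under R 4.3.3 (lmFit, then a two-sided eBayes test with trend), with Benjamini-Hochberg adjustment over all 18625 tested probe sets, 2 residual and 6.33 prior degrees of freedom. Every p-value depends on the spread pooled over probe sets, and the number of arrays limits the precision. The fit was run on simulated data with independent noise of equal spread for all probe sets. The simulation held no array-wide difference between groups, so it does not bear on the 3′/5′ ratio, the scale or the run. Members, lists and named genes (in each complex the 3 lowest and 3 highest by change, all higher calls, isoforms and genes whose probe sets differ) were chosen with earlier results of these data known, and Tfam, Yy1, Nrf1, Ppargc1a, Cs, the Vdac genes, Slc25a3 and list members named to complete a count were added after their values were seen. Lists were described by counts and not tested. The alternatives were the constant added, the filter, the normalization, a gene span trend, the variance model, averaging of probe sets, a replicate block and leaving out each array.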

Additional observations from a re-analysis of the deposited data

How the results depend on the processing

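The number of lower members was 33 and stayed within 1.5 times of that in all 15 alternatives (25 without control replicate 1 to 44 with hybridization control scaling; leaving out 1 array at a time gave 25 to 41). The number of higher members was 10 and moved more: it was 0 with hybridization control scaling, 5 without an intensity trend in the variance, 16 with the gene span trend removed, and 1 to 19 when 1 array was left out (1 without control replicate 1, 3 without control replicate 2, 19 without AMH replicate 1 and 11 without AMH replicate 2). A fit without a control array takes its spread from the AMH arrays alone, whose log2 difference had an SD of 0.435, against 0.318 between the control arrays. Over all genes tested, lower and higher calls both became more frequent without either AMH array and rarer without either control array. Uqcrc2 reversed to -0.32 when its probe sets were averaged. Over all genes tested, the lower and higher counts were 1269 and 1175 as deposited, 2593 and 94 with hybridization control scaling, 1118 and 1509 with median centring, 1113 and 1672 with the gene span trend removed, 979 and 751 with no filter, 1050 and 679 without an intensity trend and 1249 and 769 with probe sets averaged, and 556 and 236 without control replicate 1 and 687 and 419 without control replicate 2. The replicate numbers only name the pools: deviations of same-numbered arrays from their group means had a correlation of -0.00082, and the replicate block gave 31 lower and 9 higher members. None of the settings bears on the 3′/5′ ratio or the run, and the cause of these shifts was not tested.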
